A study of Mus musculus with 6 samples.

Results

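The cartilage collagen genes are the 7 genes that encode collagens II, IX, XI and XXVII: Col2a1, Col9a1, Col9a2, Col9a3, Col11a1, Col11a2 and Col27a1. They were taken by symbol from the 47480 genes of the deposited table, and all 7 were present and passed the filter on low values with 11595 genes in all. The samples were primary chondrocytes, the cells that build cartilage, from 3 WT litters and 3 litters of A2ARKO mice, which carry a global deletion of Adora2a, which encodes an adenosine receptor. Animals of both genotypes had a C57BL/6 background. Each library holds RNA from the trypsinized cells of 1 whole litter, so each replicate is 1 litter and p-values reflect the spread between litters. The labels used here name neither the sex of the pups nor a batch.

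Cartilage owes its tensile strength to thin heterotypic fibrils. Collagen II forms most of the fibril, collagen XI lies within it and limits its width, and collagen IX, which forms no fibrils of its own, sits on its surface and links it to the surrounding matrix. Collagen XXVII is a fibril-forming collagen of the growth plate that is made in smaller amounts. These genes are targets of the transcription factor SOX9 and its partners SOX5 and SOX6, and they are known to be turned down when chondrocytes lose their phenotype in culture, while the collagen I genes of fibroblasts and bone stay on or come on.

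The 3 WT libraries differed widely, and WT replicate 1 stood apart. Values are FPKM (fragments per kilobase and M fragments, M for mega), which allow levels of different genes to be compared per length. The total by which the FPKM of each library were scaled, called depth here, was estimated at 41.6 to 58.35 M reads. Adora2a read 9.36, 7.31 and 3.46 FPKM in WT pools, against 0.41, 0.54 and 0.66 in A2ARKO pools. Of 11595 tested genes, 51 (0.44%) were at least 10-fold higher in WT replicate 1 than in both other WT libraries, and 6 of the 7 cartilage collagen genes were among them. The summed FPKM of 8 other chondrocyte markers was 4810, 375.6 and 200.5 in WT pools, against 763, 1305 and 1975 in A2ARKO pools. Comp alone made up most of that sum in every library but WT replicate 1. It read 1301, 295 and 165 FPKM in WT pools, against 546, 836 and 1206 in A2ARKO pools. Of the 8, all kept the order of libraries shown by Col2a1, which 1.37% of all tested genes had. Some defining markers were near 0 in WT replicate 3, where Matn1, encoding the cartilage protein matrilin-1, read 0.57 FPKM, against 1189 FPKM in WT replicate 1. Aggrecan, encoded by Acan, read 3.55 and 878 FPKM in the same libraries. Markers of 2 other lineages also set single WT libraries apart. The summed FPKM of 6 osteoblast markers was 513 in WT replicate 1 and 6.28 to 67.3 in the other 5 libraries, and that of 6 skeletal muscle markers was 805 in WT replicate 2 and 7.33 to 28.55 in the others. Macrophage and leukocyte markers, 11 in number, summed to 183, 1918 and 133 FPKM in WT pools, against 52.97, 30.1 and 26.4 in A2ARKO pools, so every WT pool was above every A2ARKO pool. Lyz2 alone made up most of each WT sum, at 127.7, 1434 and 103.9 FPKM in WT pools, against 31.02, 15.46 and 11.59 in A2ARKO pools. Of 10 tested markers of this set, 0 passed by limma and 7 were at an unadjusted p below 0.05, with a median log2 fold change of -2.70. The log2 fold change was above 0 for 1 of the 10, and 1 was called higher without WT replicate 2 (2.59% of all tested genes passed there). Counts at an unadjusted p, here and below, stand without the share of all tested genes at that p. All 3 tested osteoblast markers (Sp7, Ibsp and Alpl) were at least 10-fold higher in WT replicate 1 than in both other WT libraries. Endothelial markers summed to at most 3.76 FPKM and red cell markers to at most 0.13 FPKM. The 3 adipocyte markers summed to 28.8, 31.05 and 35.56 FPKM in WT pools, against 94.65, 37.81 and 68.42 in A2ARKO pools. That sum was higher in every A2ARKO pool, and 0 of the 3 passed by limma (2 at an unadjusted p below 0.05, median log2 fold change 0.78). The part of these other cell types in the results below was not tested. In pooled cells, fewer chondrocytes and less collagen RNA per chondrocyte cannot be told apart.

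Sequence upstream of the RefSeq start site is shown for 3 of the genes: the 2 chain genes of collagen XI, which varied to different extents, and Col9a1 of collagen IX. RefSeq promoters on GRCm38.p6, the assembly of mm10, matched 5 of the 7 genes, and Col2a1 and Col9a3 were not among them. The RefSeq start is the GENCODE gene start for Col11a1 and for the first of 2 RefSeq starts of Col9a1. It lies 299 bases before the GENCODE gene start in Col11a2, and 181 and 1408 bases inside the GENCODE gene in Col9a2 and Col27a1, so most of the Col9a2 window and all of the Col27a1 window fall within those genes. In the 250 bases before the RefSeq start site, capitals mark the GC box GGGCGG or its complement CCGCCC and the TATA box TATAAA, searched on both strands.
Col9a1, first start, chr1:24177360-24177609, plus strand: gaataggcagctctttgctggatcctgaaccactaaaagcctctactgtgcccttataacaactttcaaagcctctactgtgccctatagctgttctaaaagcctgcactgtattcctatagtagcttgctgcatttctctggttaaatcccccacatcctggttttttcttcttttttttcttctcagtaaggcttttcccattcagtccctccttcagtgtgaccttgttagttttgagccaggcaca
Col11a1, chr3:114030290-114030539, plus strand: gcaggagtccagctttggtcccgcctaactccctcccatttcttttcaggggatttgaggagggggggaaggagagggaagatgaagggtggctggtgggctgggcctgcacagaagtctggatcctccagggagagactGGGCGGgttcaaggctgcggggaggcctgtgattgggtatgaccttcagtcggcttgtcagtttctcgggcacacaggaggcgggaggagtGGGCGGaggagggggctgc
Col11a2, chr17:34038888-34039137, plus strand: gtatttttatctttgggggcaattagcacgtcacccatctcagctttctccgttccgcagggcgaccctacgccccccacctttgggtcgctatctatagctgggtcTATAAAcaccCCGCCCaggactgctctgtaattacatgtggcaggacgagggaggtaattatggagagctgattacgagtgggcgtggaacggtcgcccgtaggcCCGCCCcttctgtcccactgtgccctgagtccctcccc
A GC box was found in Col9a2, Col11a1, Col11a2 and Col27a1, and 32.7% of 32851 promoters of the same length hold one. In Col9a2 they begin 26 and 14 bases before the start, in Col11a1 110 and 19 bases, in Col11a2 133 and 38 bases and in Col27a1 85 bases. The match to the TATA box motif in Col11a2 begins 143 bases before the RefSeq start, and 12.4% of all promoters hold this motif. The SOX core ACAAT was absent from all 6 windows of these 5 genes, and 27.7% of all promoters hold it. Neither window of Col9a1 held any of the 3 motifs.

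Col2a1, which encodes the single chain of collagen II, spanned 101-fold within WT. Its place is chromosome 15 of mm10 (97975602 to 98004695, minus strand). It read 18662, 808 and 185 FPKM in WT pools, against 1363, 2939 and 3887 in A2ARKO pools. WT replicate 1 was above every other library and the other WT libraries were below every A2ARKO library, so the WT values lay on both sides of the A2ARKO values. Col2a1 was the most abundant of all genes in WT replicate 1, where it held 6.37% of all FPKM. It ranked 22 in WT replicate 2 and 129 in WT replicate 3, and 8, 3 and 6 in the A2ARKO libraries. Among the 44 numbered collagen genes of the table it ranked 1 in WT replicate 1 and 9 in WT replicate 3. Col2a1 made up 79.95% to 85.4% of the summed FPKM of the 7 genes in 5 libraries and 61.0% in WT replicate 3.

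Collagen XI is built from the products of Col11a1, Col11a2 and Col2a1, and its first 2 genes differed in how far they varied. Col11a2 (chromosome 17, 34039437 to 34066685, plus strand) read 937, 16.7 and 3.84 FPKM in WT pools, against 34.04, 73.1 and 131 in A2ARKO pools. Its 244-fold range within WT was the widest of the 7 genes. Col11a1 (chromosome 3, 114030540 to 114220718, plus strand) read 1295, 124 and 101 FPKM in WT pools, against 84.8, 201 and 282 in A2ARKO pools. It was the exception in the order of libraries: A2ARKO replicate 1 was lowest, below both low WT libraries, and its range within WT was 12.8-fold. The chain encoded by Col11a1 is also made by mesenchymal cells outside cartilage, where it joins collagen V.

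Collagen IX is a heterotrimer of the products of Col9a1, Col9a2 and Col9a3, and all 3 genes were lowest in WT replicate 3. Col9a1 (chromosome 1, 24177610 to 24252684, plus strand) read 653, 39.8 and 3.62 FPKM in WT pools, against 50.6, 116 and 171 in A2ARKO pools. Col9a2 (chromosome 4, 121039385 to 121055322, plus strand) read 433, 10.3 and 3.6 FPKM in WT pools, against 25.1, 51.6 and 124 in A2ARKO pools. Col9a3 (chromosome 2, 180597790 to 180622189, plus strand) read 346, 6.26 and 1.51 FPKM in WT pools, against 30.8, 66.6 and 114 in A2ARKO pools. WT replicate 1 was highest for each chain, and the other WT libraries lay below all A2ARKO libraries. The lowest of these values, Col9a3 in WT replicate 3, rests on about 306 reads, so counting error is small beside the 229-fold range of Col9a3 within WT. On 6.07% of its exon length Col9a3 overlaps the antisense gene Tcfl5, which reached 3.54 FPKM at most. The strand setting of the counting is unknown here, and reads of Tcfl5 there cannot be told from those of Col9a3.

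Col27a1, encoding the chain of collagen XXVII (chromosome 4, 63214004 to 63334991, plus strand), was the lowest of the 7 in every library but WT replicate 3, and varied least. It read 44.75, 5.66 and 4.43 FPKM in WT pools, against 7.53, 11.5 and 13.1 in A2ARKO pools. It kept the order of libraries of Col2a1, with a 10.1-fold range within WT and a 1.74-fold range within A2ARKO. In WT replicate 3, where the collagen IX genes and Col11a2 were below 4 FPKM, Col27a1 was above all 4 of them.

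**Figure D1:**
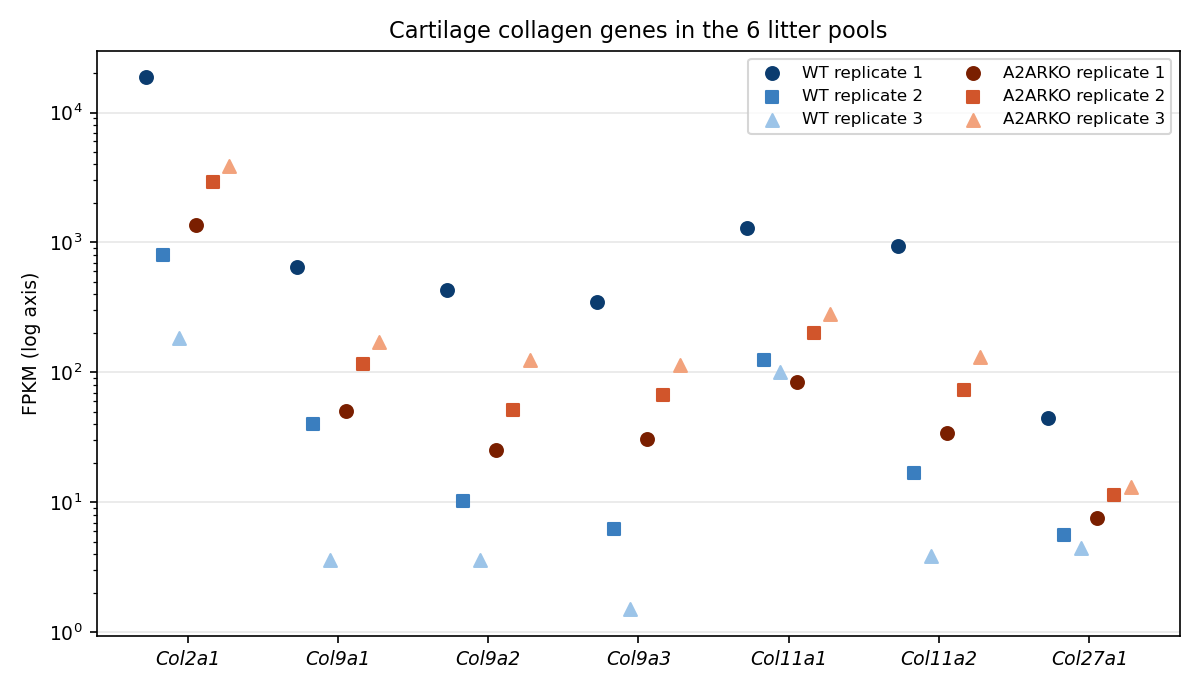
FPKM (log axis) of the 7 cartilage collagen genes, 1 point per litter pool, with WT in blue and A2ARKO in red. WT replicate 1 is the highest library for every gene, and WT replicate 3 is the lowest for 6 of them, the exception being Col11a1.

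The 7 genes varied together. In 6 of them the libraries ranked, from high to low, WT replicate 1, A2ARKO replicates 3, 2 and 1, then WT replicates 2 and 3, an order held by 159 (1.37%) of all tested genes. Over the 21 pairs of genes, Pearson's r of log2(FPKM + 1) across the 6 libraries ranged from 0.80 to 0.99 with a median of 0.96. These points share libraries and their scaling, and WT replicate 1 lies far from the rest. The SD of log2(FPKM + 1) within WT was 3.96 for Col11a2, and 3 of the 11595 tested genes had a larger one. For Col27a1, the steadiest, it was 1.70, and 0.992% of tested genes had a larger one. The median SD within WT was 3.47 over the 7 genes and 0.192 over all tested genes, and within A2ARKO it was 0.89 and 0.0966. The genes most like the mean pattern of the 7 were Apmap, Ctgf, Slc17a9, Crispld1 and Itga10, with r between 0.995 and 0.998 over 6 libraries. Itga10 encodes a collagen II receptor chain of chondrocytes and read 41.6, 3.1 and 1.58 FPKM in WT pools, against 4.3, 8.22 and 12.1 in A2ARKO pools. Ctgf, which encodes a connective tissue growth factor, read 1448, 149.6 and 84.65 FPKM in WT pools, against 259, 381 and 475 in A2ARKO pools. Those most like Col2a1 alone were Lect1 (chondromodulin), Crispld1, Mia, Klf15 and Apmap, with r between 0.993 and 0.997.

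Between genotypes, 0 of the 7 genes passed limma's test at an adjusted p below 0.05, where 5.08% of all tested genes did (384 genes or 3.31% higher and 205 genes or 1.77% lower in A2ARKO). That split was 178 and 170 once all libraries were scaled to 1 common sum, which moved the median of all genes by -0.10 on the log2 scale, and 302 and 259 after quantile normalization. At an unadjusted p below 0.05 the count for the 7 genes was also 0. The direction depended on the scale. The mean FPKM was lower in A2ARKO for all 7 genes, at a median ratio of 0.448, and WT replicate 1 makes up most of each WT mean. The log2 fold change was above 0 for 5 genes and below 0 for Col11a1 and Col27a1, with a median of 0.83 beside 0.0020 over all tested genes. For Col2a1 the means were 6552 ± 10493 FPKM in WT and 2729 ± 1275 FPKM in A2ARKO (SD, n = 3), while the mean of log2(FPKM + 1) was higher in A2ARKO by 0.83 (standard error 1.65, adjusted p of 0.802 by limma). Its 95% interval ran from -3.19 to 4.84, so neither a large fall nor a large rise could be told from no change. Col9a3 had the largest log2 fold change, 1.76 (standard error 1.80, adjusted p of 0.599 by limma), and Col11a1 the lowest, -0.58 (standard error 1.04, adjusted p of 0.781 by limma). None of the 7 genes had groups without overlap, where 32.9% of tested genes did.

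Leaving out single WT libraries changed the sign. Without WT replicate 1, all 7 log2 fold changes were above 0, with a median of 2.88, and 6 genes, all but Col11a1, were higher in every A2ARKO library than in both remaining WT libraries. In that comparison 26.2% of tested genes were higher without overlap. Of the 7 genes, Col9a3 alone passed, with a log2 difference of 3.88 (standard error 0.68, adjusted p of 0.0367 by limma). Of all tested genes 7.76% passed in that fit, 4.64% higher and 3.12% lower. The adjusted p was 0.0723 for Col9a2, 0.0769 for Col27a1, 0.0783 for Col11a2, 0.0962 for Col2a1, 0.141 for Col9a1 and 0.491 for Col11a1. The mean FPKM of Col9a3 was then 3.89 in WT and 70.4 in A2ARKO, and that of Col2a1 was 496 and 2729. Without WT replicate 3, 6 of the 7 log2 fold changes were below 0, with a median of -0.64, and 0 passed beside 7.35% of all tested genes. Without WT replicate 2, 0 of the 7 passed beside 2.59% of tested genes. Without A2ARKO replicate 1, 2 or 3, 0 of the 7 passed each time, and 1.03%, 0.431% and 0.647% of tested genes did.

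**Figure D2:**
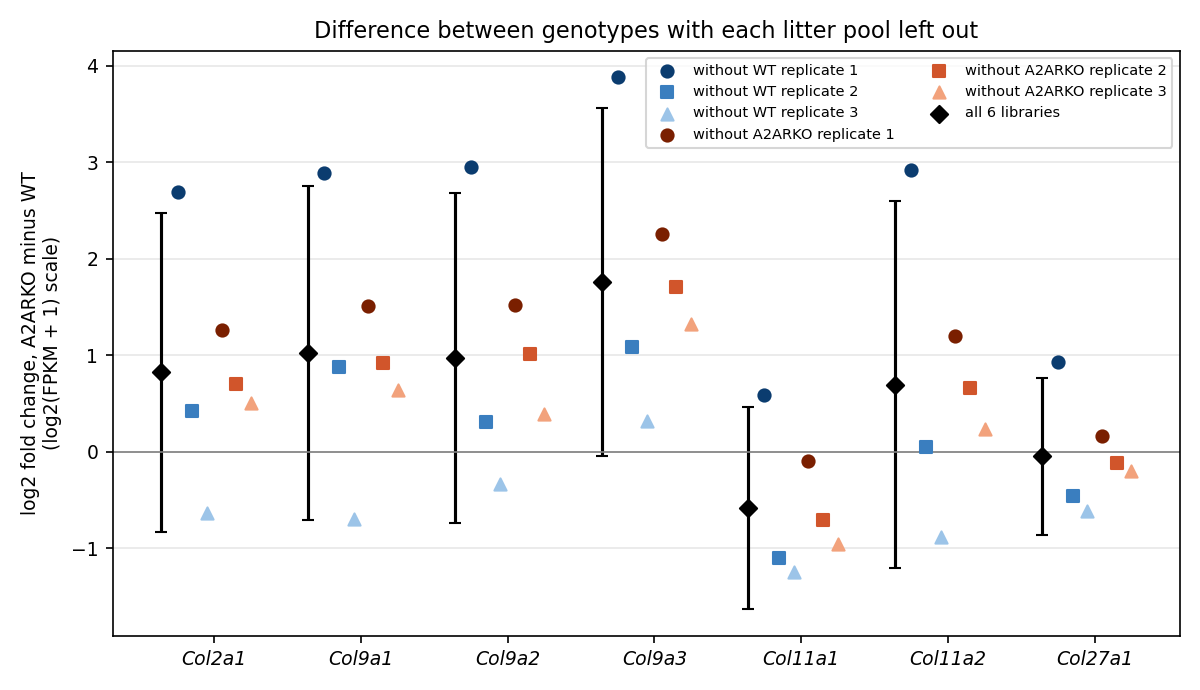
Log2 fold change of each gene, A2ARKO minus WT, with all 6 libraries (black, bars are the standard error) and with each litter pool left out (coloured). Leaving out WT replicate 1 puts all 7 genes above 0 and leaving out WT replicate 3 puts 6 below 0, all but Col9a3.

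Ratios of chain genes within a library do not depend on how the library was scaled. For all 9 ratios compared the highest and lowest library lay closer together in A2ARKO than in WT, a difference that was not tested. The median SD of log2(FPKM + 1) over all tested genes was also smaller in A2ARKO, at 0.0966 against 0.192 in WT. The 9 ratios share genes. Col11a1 over Col11a2 was 1.38, 7.41 and 26.3 in WT pools, against 2.49, 2.75 and 2.15 in A2ARKO pools, so the highest and lowest differed 19.0-fold in WT and 1.28-fold in A2ARKO. Col2a1 over Col11a1 was 14.4, 6.52 and 1.83 in WT pools, against 16.1, 14.6 and 13.8 in A2ARKO pools. WT replicate 1 lay near the A2ARKO libraries in this ratio, and the other WT libraries lay below them.

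Within collagen IX, Col9a1 over Col9a3 was 1.89, 6.35 and 2.40 in WT pools, against 1.64, 1.74 and 1.501 in A2ARKO pools. Col9a2 over Col9a3 was 1.25, 1.65 and 2.38 in WT pools, against 0.816, 0.775 and 1.08 in A2ARKO pools. Both ratios were lower in every A2ARKO library, by mean log2 differences of -0.91 and -0.95. Each gave p = 0.1 in a two-sided exact permutation test, the smallest that 3 against 3 libraries allow, and 0.45 adjusted by Benjamini-Hochberg over the 9 ratios compared. Col9a1 over Col9a2 overlapped between the groups (log2 difference 0.033, exact p = 1).

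Col2a1 over Col1a1, a common index of the chondrocyte phenotype, was 3.55, 0.22 and 0.0543 in WT pools, against 0.57, 2.20 and 3.41 in A2ARKO pools. WT replicate 1 and A2ARKO replicate 3 were close in it, and WT replicate 3 was 65.3-fold below WT replicate 1. The log2 difference of 2.22 had an exact permutation p of 0.4, and 0.72 adjusted. Col1a1 itself, the collagen I gene of fibroblasts and bone, read 5256, 3672 and 3397 FPKM in WT pools, against 2393, 1337 and 1139 in A2ARKO pools. It was lower in every A2ARKO library and did not pass (log2 difference -1.39, adjusted p of 0.121 by limma). The other 3 ratios, Col2a1 over Col9a1, Col2a1 over Col27a1 and Col11a1 over Col5a1, overlapped between the groups at exact permutation p of 0.6, 0.6 and 0.8. Col5a1, a collagen V gene, read 676, 498 and 511 FPKM in WT pools, against 331, 242 and 222 in A2ARKO pools (log2 difference -1.09, adjusted p of 0.0533 by limma).

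**Figure D3:**
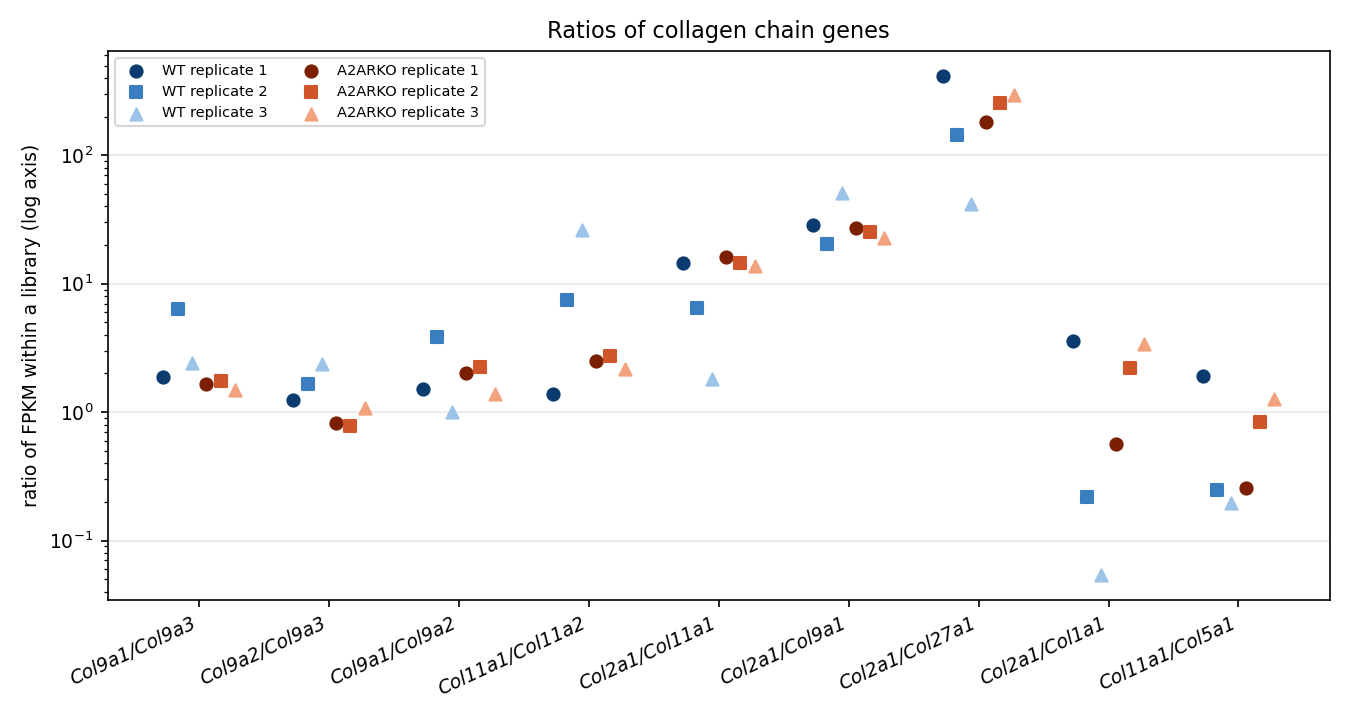
Ratio of FPKM within each litter pool (log axis) for 9 pairs of collagen genes, WT in blue and A2ARKO in red. The A2ARKO points of Col11a1/Col11a2 lie between 2.15 and 2.75 while the WT points run from 1.38 to 26.3.

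Sox9, the transcription factor that drives these genes, read 50.7, 17.3 and 15.3 FPKM in WT pools, against 21.2, 31.6 and 35.5 in A2ARKO pools, in the same order of libraries as Col2a1, and differed by 0.26 on the log2 scale (adjusted p of 0.782 by limma). Sox5 read 1.04 to 2.82 FPKM and Sox6 1.01 to 4.93 FPKM over the 6 libraries, both highest in WT replicate 1 and lowest in WT replicate 3. Of all tested genes 3.31% rose and 1.77% fell. Of 20 tested cartilage transcription factors 1 rose, 0 fell and 19 did not pass (median log2 fold change 0.13), a count near those shares. Without WT replicate 3, where 7.35% of all tested genes passed, 2 of the 20 were higher and 2 lower with a median of -0.039. The lower ones were Mef2c and Scx (limma adjusted p of 0.0462 and 0.0333), and 0 of the 20 passed without any 1 A2ARKO library. The riser was Epas1, encoding a hypoxia-inducible factor, at 11.02, 4.57 and 6.94 FPKM in WT pools, against 48.3, 36.4 and 43.65 in A2ARKO pools (log2 difference 2.42, adjusted p of 0.013 by limma). Its groups did not overlap. Epas1 did not pass without A2ARKO replicates 1, 2 and 3 (limma adjusted p of 0.06398, 0.0629 and 0.07202).

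Of 26 tested cartilage matrix genes other than collagens, 16 were highest in WT replicate 1, where 23.1% of all tested genes were. Among the 26, 11 had the library order of Col2a1, which 1.37% of all tested genes had. Acan, Hapln1, Matn1, Matn3, Comp, Lect1 and Snorc are among these 11 and were also counted as chondrocyte markers above. By limma 0 of the 26 rose and 1 fell, where 3.31% and 1.77% of all tested genes did. The median log2 fold change was 0.67. The gene that fell was Cilp, encoding cartilage intermediate layer protein, at 2.12, 6.4 and 2.86 FPKM in WT pools, against 0.19, 0.08 and 0.07 in A2ARKO pools (log2 difference -2.01, adjusted p of 0.0299 by limma). It did not pass without A2ARKO replicates 1, 2 and 3 (limma adjusted p of 0.0983, 0.124 and 0.119). Without WT replicate 1, 6 of the 26 were higher and 1 was lower, where 4.64% and 3.12% of all tested genes were. The median was then 1.45, while without WT replicate 3 it was -0.13. Of 8 tested genes of hypertrophic chondrocytes, the enlarged growth plate cells that precede bone formation, 0 passed (median 0.70) and 4 were at least 10-fold higher in WT replicate 1 than in the other WT libraries. Of all tested genes 0.44% were. Ibsp and Alpl are among these 4 and were also counted as osteoblast markers above. Of the 8, Mmp13 and Spp1 had the smallest p, at log2 fold changes of 3.15 and 1.97 (limma adjusted p of 0.168 and 0.193). Without WT replicate 1, 2 of the 8 were higher at a median of 2.33, and without WT replicates 2 and 3 the median was -0.27 and -0.10.

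Collagen chains need hydroxylation, folding and export before they form fibrils, and the genes for these steps were not called. Of 31 tested genes for hydroxylases, chaperones and export 0 passed by limma, beside 5.08% of all tested genes, and the median log2 fold change was -0.015. At an unadjusted p below 0.05 there were 5, and the share of all tested genes at that p is not given here. Plod3, a lysyl hydroxylase gene, and Sec24c, a gene of the vesicle coat, had the smallest p at log2 fold changes of 0.52 and 0.36 (limma adjusted p of 0.0642 and 0.0927). Of 11 tested genes for processing and crosslinking 0 passed by limma, 1 was at an unadjusted p below 0.05, likewise without that share, and the median was 0.057. Adamts14, a procollagen N-proteinase gene, and Loxl1, a lysyl oxidase-like gene, came first at -0.34 and 0.41 (limma adjusted p of 0.0803 and 0.26). Without WT replicate 1, 2 of the 31 were higher and 1 lower, and 2 of the 11 were higher, beside 4.64% higher and 3.12% lower of all tested genes. Without WT replicate 2, 1 of the 31 was higher, where 2.59% of all tested genes passed in either direction.

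Of 20 tested collagens outside the cartilage set, 4 fell, 0 rose and 16 did not pass, with a median log2 fold change of -0.44. Of all tested genes 1.77% fell and 3.31% rose. Col8a2, a short-chain network collagen gene, read 61.85, 61.4 and 61.2 FPKM in WT pools, against 16.7, 15.9 and 11.3 in A2ARKO pools. Its log2 difference was -2.02 (adjusted p of 0.00408 by limma), and it passed whichever library was left out. With a replicate block it did not pass (limma adjusted p of 0.0616). Col16a1 fell at -0.96, Col6a3, a microfibrillar collagen VI gene, at -0.87 and Col15a1 at -1.46 (limma adjusted p of 0.0136, 0.0313 and 0.04799). Col16a1 did not pass without A2ARKO replicates 1, 2 and 3 (limma adjusted p of 0.0631, 0.0843 and 0.0745). Col6a3 did not pass without WT replicate 3 (0.0514) or without A2ARKO replicates 1, 2 and 3 (0.1145, 0.148 and 0.126). Col15a1 passed only with all libraries or without WT replicate 3, and its adjusted p was 0.0693 and 0.106 without WT replicates 1 and 2, and 0.0723, 0.176 and 0.174 without A2ARKO replicates 1, 2 and 3. The number that fell was 3 without any 1 WT library and 1 without any 1 A2ARKO library. Of all tested genes 7.76%, 2.59% and 7.35% passed in either direction without WT replicates 1, 2 and 3. Without A2ARKO replicates 1, 2 and 3, 1.03%, 0.431% and 0.647% of all tested genes passed. Col10a1 was higher without WT replicate 1 (limma adjusted p of 0.0319). Markers of fibroblasts, 8 in number and Col1a1, Col1a2 and Col3a1 among them, summed to 8699, 6733 and 6016 FPKM in WT pools, against 4110, 2475 and 2357 in A2ARKO pools. The summed markers were thus lower in every A2ARKO pool, as the collagens that fell were. Most of that sum is the 3 collagen genes, and Pdgfra, another fibroblast marker, overlapped between the groups (27.3, 58.3 and 45.6 FPKM in WT pools, against 50.1, 38.1 and 40.1 in A2ARKO pools). Of 6 tested fibroblast markers 1 fell by limma, Dpt, beside 1.77% of all tested genes (median log2 fold change -1.09). At an unadjusted p below 0.05 there were 5, in either direction, and 2 of the 6 had a log2 fold change above 0. Dpt (adjusted p of 0.0354) did not pass with any 1 library left out other than WT replicate 3. The 3 tendon markers summed to 28.8, 131 and 142 FPKM in WT pools, against 41.2, 26.96 and 19.4 in A2ARKO pools, and 0 passed by limma, with 2 at an unadjusted p below 0.05 (median -0.89). With each WT library left out in turn, 1 tendon marker was lower, a different one each time (Tnmd, Mkx and Scx). Scx was also counted as a cartilage transcription factor above. The part of these cells in the lower collagen levels was not tested.

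Among cell-surface receptors that bind collagen, 1 of 7 tested rose, 1 fell and 5 did not pass. Over all tested genes 3.31% rose and 1.77% fell. Ddr1, a receptor tyrosine kinase gene, read 33.3, 18.8 and 26.5 FPKM in WT pools, against 73.7, 73.7 and 70.2 in A2ARKO pools (log2 difference 1.47, adjusted p of 0.0199 by limma). Itga11, encoding an integrin chain that binds collagen I, read 60.6, 32.85 and 43.7 FPKM in WT pools, against 14.7, 8.71 and 8.67 in A2ARKO pools (log2 difference -1.995, adjusted p of 0.0216 by limma). Neither overlapped between the groups. Ddr1 did not pass without A2ARKO replicates 1, 2 and 3 (limma adjusted p of 0.07895, 0.0993 and 0.0896), and Itga11 did not without A2ARKO replicates 2 and 3 (0.104 and 0.1003). Of 7 tested collagen-degrading proteases 1 rose, Mmp3, and the other 6 were not past the threshold (median -0.46). The collagenase gene Mmp13, whose product cleaves collagen II, read 211, 104 and 9.41 FPKM in WT pools, against 266, 555 and 1086 in A2ARKO pools. It was higher in every A2ARKO library and did not pass the test. Mmp3 (log2 difference 6.81, adjusted p of 0.021 by limma) did not pass without A2ARKO replicates 1, 2 and 3 (0.0714, 0.0941 and 0.0909). Without WT replicate 3, Ctsk, a cathepsin gene, was lower (log2 difference -0.97, adjusted p of 0.0345 by limma).

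**Figure D4:**
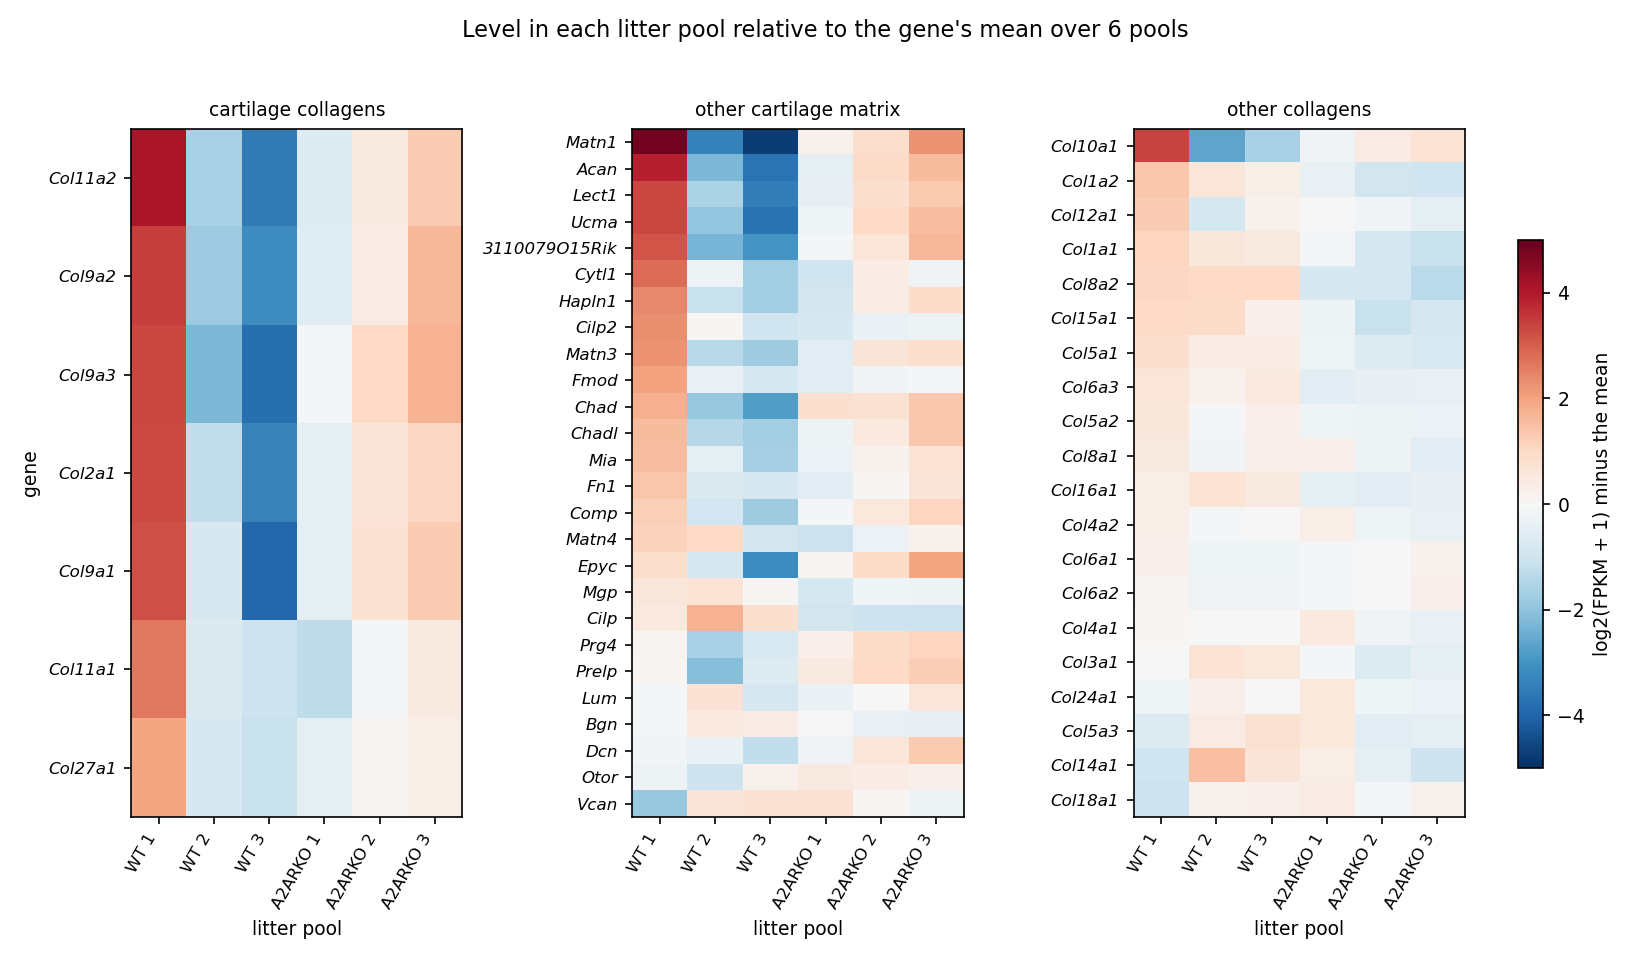
Log2(FPKM + 1) of each gene in each litter pool minus its mean over the 6 pools, for the 7 cartilage collagens, 26 other cartilage matrix genes and 20 other collagens that were tested, sorted by WT replicate 1. The red column of WT replicate 1 and the blue columns of the other WT pools are shared by the cartilage collagens and by 9 other matrix genes that were at least 10-fold higher in WT replicate 1, and by 1 of the other collagens, Col10a1.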

How the data were processed

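RNA sequencing of 6 litter pools gave 1 table, deposited by the authors, of FPKM with 2 decimals. HTSeq and mm10 are named by the submitters' processing notes. Not given in the sources used here are aligner, annotation and strand setting. FPKM are scaled by gene length and library total, so an abundant gene such as Col2a1 can lower the others. Depth was estimated from short genes of at most 150 nt: FPKM times exon length (GENCODE M21) took fixed steps, and 99.6% or more of values up to 10 reads were whole within 0.1 read. Reads per gene derived from it are approximate.

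Genes at 1 FPKM or more in at least 3 libraries entered limma 3.58.1 (R 4.3.3, with trend) on log2(FPKM + 1), without a replicate block, adjusted by Benjamini-Hochberg over all genes. Log2 fold changes are A2ARKO minus WT on that scale and understate changes of low genes. Chain ratios had exact permutation tests. Members and lists were chosen with earlier results of these data known. Named list genes were up to 4 called genes with the largest change or, with none called, 2 with the smallest p. Genes most alike were the 5 with the highest Pearson correlation, predicted genes passed over. Cnmd and Snorc are listed as Lect1 and 3110079O15Rik. Alternatives changed the pseudocount, filter, scaling, trend, library weights, block and libraries.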

Additional observations from a re-analysis of the deposited data

How the results depend on the processing

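The 0 of 7 cartilage collagen genes past the threshold stayed 0 under every pseudocount, filter, scaling, trend, weight and block tried, and ranged from 0 to 1 with each library left out. The number of all genes past the threshold, 589, was 213 when unfiltered, 348 at a common library sum and 1363 with library weights, whose estimation stopped before convergence. It ranged from 50 to 900 with each library left out. With a replicate block it was 2, and the deviations of same-numbered libraries correlated at -0.521, -0.325 and -0.387. The labels do not say whether same-numbered pools belong together, and these 3 values cannot settle it. Of the genes named above, Epas1, Cilp, Col8a2, Col16a1, Col6a3, Col15a1, Ddr1, Itga11 and Mmp3 did not pass with the block. Cilp, Col6a3, Col15a1, Ddr1, Itga11 and Mmp3 also did not pass when unfiltered. Library weights turned Col11a1 to 0.075 and Col27a1 to 0.40. Leaving out 1 library turned the sign as follows: Col2a1, Col9a1, Col9a2 and Col11a2 to -0.64, -0.69, -0.34 and -0.88 without WT replicate 3, and Col11a1 and Col27a1 to 0.59 and 0.93 without WT replicate 1, and Col27a1 to 0.16 without A2ARKO replicate 1. Over these fits the log2 fold change ranged from -0.64 to 2.69 for Col2a1, from -0.69 to 2.88 for Col9a1, from -0.34 to 2.94 for Col9a2, from 0.32 to 3.88 for Col9a3, from -1.24 to 0.59 for Col11a1, from -0.88 to 2.92 for Col11a2 and from -0.61 to 0.93 for Col27a1. The log2 difference of Col9a1/Col9a2 was -0.096 and -0.39 without WT replicates 1 and 3 and -0.031 and -0.11 without A2ARKO replicates 1 and 2, and up to 0.58 without WT replicate 2. Without WT replicate 3, Col2a1/Col9a1, Col2a1/Col27a1 and Col11a1/Col5a1 turned to 0.050, -0.026 and -0.094, while the last 2 reached 1.64 and 1.54 without WT replicate 1. No alternative changed the depth, whose effect was not tested.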
